A study of Homo sapiens with 8 samples.

Results

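SOX genes encode transcription factors that bind DNA through a shared HMG box, and 10 of them were followed here as a group in A673 cells: SOX2, SOX4, SOX5, SOX6, SOX8, SOX9, SOX11, SOX12, SOX13 and SOX21. They were taken by gene symbol from 34788 genes for which reads were summed, 9 of the 10 had reads, and the same 9 passed the filter on low counts among 15991 genes tested. A673 is an Ewing sarcoma line that carries the EWSR1-FLI1 fusion. All cells were A673/TR/shFEZF1 cells, which carry a tetracycline repressor and an shRNA against FEZF1 under the H1 promoter, so that doxycycline switches the shRNA on. The untreated group held 4 cultures, 1 of the polyclonal population and 1 of each of clones 3, 5 and 6, and the doxycycline group held 1 culture of each of the same 4 origins after 72 h with 1 µg/mL doxycycline. The repressor line A673/TR was itself a single clone, all cultures carried the shRNA construct, and no culture with doxycycline and another shRNA was analysed here, so that an effect of doxycycline and an effect of FEZF1 knock-down cannot be told apart. With 1 culture of each kind per origin, p-values measure the spread between these cultures.

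SOX factors are sorted into groups by the sequence of the HMG box, and most of them need a partner protein to act on a given gene. SOX2 (group B1) is known for keeping stem cells and neural progenitors undifferentiated, and SOX21 (group B2) for repressing genes in the same neural progenitors. SOX4, SOX11 and SOX12 (group C) are known from immature neurons and mesenchymal progenitors, SOX5, SOX6 and SOX13 (group D) carry no activation domain of their own, and SOX8 and SOX9 (group E) act in neural crest and, together with SOX5 and SOX6, in cartilage.

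Libraries held between 26719886 and 42422421 reads assigned to transcripts. FEZF1, the target of the shRNA, was measured first. Its level in CPM (read counts scaled to library size after TMM normalization) was 96.4, 70.5, 107 and 74.4 in the untreated polyclonal population and clones 3, 5 and 6, and 60.6, 43.0, 60.8 and 36.4 in the same order with doxycycline. It was lower in 4 of 4 pairs and the groups did not overlap, as for 4.95% of all genes tested (log2 fold change -0.81, standard error 0.07, edgeR's quasi-likelihood test with origin as a block, Benjamini-Hochberg adjusted p = 0.00595). Without origin in the model, its adjusted p was 0.29 in edgeR, in a fit that called 1 gene of all genes tested. It was 0.0157 in DESeq2 without origin. All 10 Ewing sarcoma markers looked at, NKX2-2, NR0B1 and CD99 among them, had a mean of at least 1 TPM (a level per transcript length that sums to the same total in every library). With doxycycline, NR0B1 (log2 fold change 0.67, adjusted p = 0.00746) and NKX2-2 (0.30, adjusted p = 0.0414) rose in the same edgeR test. LIPI, also on this list, fell (-0.30, adjusted p = 0.0203), and 7.62% of all genes tested passed in either direction. Among markers of other cell types, 0 of 4 leukocyte genes, 0 of 4 epithelial genes and 3 of 5 fibroblast genes (DCN, COL3A1 and THY1) reached 1 TPM on average. CD3E had 0 reads in every library. RNA came from whole cultures, so fewer cells with a transcript and less of it per cell cannot be told apart.

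A673/TR/shFEZF1 cells expressed SOX2 most of all SOX genes, at a mean of 57.0 TPM, followed by the 3 genes of group C, SOX4, SOX11 and SOX12, between 26.8 and 29.9 TPM. SOX9 was at 18.6, SOX6 at 9.86, SOX13 at 6.59, SOX8 at 2.96 and SOX5 at 1.57 TPM, and SOX21 had 0 reads in 8 of 8 libraries. SOX2, SOX4, SOX11 and SOX12 together made up 72.9% to 79.4% of the summed TPM of all SOX genes in a library. Among 1647 transcription factors of the list used by the study, SOX2 ranked 151 by mean TPM, SOX4 295, SOX11 320, SOX12 323, SOX9 425, SOX6 649, SOX13 760, SOX8 935 and SOX5 1028. For SOX5, level and rank rest on matched transcripts that held 39.3% of its reads, so its place relative to SOX8 and other genes was not settled. Neighbours in the order of the members were apart in every library range at 4 steps only: SOX2 lay above SOX4, SOX9 above SOX6, SOX13 above SOX8 and SOX5 above SOX21. At the other steps the ranges over the 8 libraries overlapped. Library by library, SOX12 was above SOX9 in 8 of 8, SOX4 above SOX11 in 7, SOX8 above SOX5 in 7 and SOX6 above SOX13 in 6. SOX11 and SOX12 had near equal means, with SOX11 higher in 2 of 8 libraries.

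SOX2 (Entrez gene 6657) is a gene of chromosome 3, plus strand (181711925 to 181714436 in GRCh38, the build of all positions here). It has 1 exon and sits inside the long noncoding gene SOX2-OT on the same strand. Its TPM was 64.3, 60.7, 48.2 and 62.9 in the untreated polyclonal population and clones 3, 5 and 6, and 58.5, 59.4, 47.7 and 54.1 with doxycycline. The cultures of clone 5 were the lowest in both groups. SOX2-OT was between 0.224 and 0.441 TPM. The related group B genes SOX3 and SOX14 had 0 reads in every library. SOX1 had 4 reads in the untreated and 6 in the doxycycline culture of the polyclonal population, and 0 in the 6 cultures of the clones. For SOX21 (chromosome 13, 94709622 to 94712545, minus strand, 1 exon), a count of 0 allows up to 3 reads, which is 0.0707 to 0.112 CPM of assigned reads in these libraries. Such floors cover counting error only.

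In group C, SOX4 (chromosome 6, 21593751 to 21598619, plus strand), SOX11 (chromosome 2, 5692384 to 5701385, plus strand) and SOX12 (chromosome 20, 325552 to 330224, plus strand) have 1 exon each. SOX4 ranged from 21.1 to 36.4 TPM, SOX11 from 18.6 to 32.1 and SOX12 from 19.5 to 33.7. All 3 were lowest in the doxycycline culture of clone 6. SOX11 and SOX12 were highest in the untreated polyclonal population, and SOX4 in the doxycycline culture of clone 3. In CPM, which favours long transcripts, SOX11 with its transcript of 9002 bases came first of the members and SOX2 ranked 3, so the order holds for levels per length only.

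In group E, SOX9 (chromosome 17, 72121020 to 72126416, plus strand, 3 exons) ranged from 12.3 to 26.3 TPM and SOX8 (chromosome 16, 981770 to 986979, plus strand, 3 exons) from 1.71 to 4.42 TPM. Their relative SOX10, a factor of Schwann cells and melanocytes, had 1 read in 1 library and 0 in the other 7. Among the SOX genes outside the 10 members, SOX18 (group F, known from blood and lymph vessels) was at 1.38 to 4.50 TPM (mean 3.06), near SOX8. SOX15 had a mean of 0.867 TPM and SOX7 of 0.433 TPM. SOX17 had at most 3 reads and SOX30 at most 1 read in a library.

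In group D, SOX13 (chromosome 1, 204073115 to 204127743, plus strand) ranged from 4.46 to 10.7 TPM, with clone 3 highest in both groups. SOX6 (chromosome 11, 15966449 to 16738477, minus strand) ranged from 8.49 to 11.6 TPM. SOX5 (chromosome 12, 23529504 to 24562650, minus strand) was the most uneven. Reads of SOX5 could be summed only in part: the matched transcripts held 39.3% of the reads implied by the authors' mean of normalized counts for this gene, against 101% or so for the other members with reads. Its 198, 119, 58.6 and 323 reads in the untreated and 54.96, 197, 28.0 and 46.3 in the doxycycline cultures (polyclonal population, clones 3, 5 and 6) were spread over 13 of 27 matched transcripts. The levels of SOX5 given here are therefore those of part of its transcripts, and the rest was not analysed here.

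SOX2, SOX4, SOX8, SOX9, SOX11 and SOX12 were each read through 1 curated transcript. SOX6 was read through 6, and the reads that Salmon placed on each moved from library to library. Shares and levels per transcript are estimates of how reads of 1 gene divide, and their uncertainty was not measured here. The 9304-base transcript NM_001367873.1 took 18.0% to 28.6% of SOX6 reads (median 24.4%) and the 8865-base transcript NM_033326.3 took 26.3% to 37.4% (median 27.8%). NM_001145811.2 ranged from 16.9% to 45.0% (median 30.2%), whereas NM_017508.3 had 98.7 estimated reads in the untreated culture of clone 5 and 0 in the other 7 libraries. NM_001367872.1 was also read in every library, at 4.21% to 19.2%. Start sites are shown for 2 of the 6 transcripts, NM_001367873.1 and NM_033326.3, whose length equals that of a GENCODE transcript of SOX6 and so gives the start; those of the other 4 could not be placed this way. The sequences are from RefSeq on GRCh38.p14, from 250 bases before to 50 after the start, 5′ to 3′ on the strand of the gene (minus). Capitals mark a match to GGAAGGAA, tandem copies of the motif GGAA that EWSR1-FLI1 binds in repeats, on either strand; the match reads TTCCTTCC here since it lies on the opposite strand.
SOX6 start of NM_001367873.1, chr11:16356497-16356796: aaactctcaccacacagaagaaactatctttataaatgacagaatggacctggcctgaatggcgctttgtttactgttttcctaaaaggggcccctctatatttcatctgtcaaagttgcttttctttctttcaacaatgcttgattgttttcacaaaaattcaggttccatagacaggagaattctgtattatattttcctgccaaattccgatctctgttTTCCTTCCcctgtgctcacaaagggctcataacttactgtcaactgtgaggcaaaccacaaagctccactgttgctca
SOX6 start of NM_033326.3, chr11:16476339-16476638: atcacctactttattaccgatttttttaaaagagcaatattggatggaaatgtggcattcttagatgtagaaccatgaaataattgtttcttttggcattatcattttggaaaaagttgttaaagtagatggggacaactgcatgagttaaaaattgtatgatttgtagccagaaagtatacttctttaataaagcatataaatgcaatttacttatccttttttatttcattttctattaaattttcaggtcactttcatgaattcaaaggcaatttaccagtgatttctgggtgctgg
The first window holds 1 match, at its base 223, and the second none. GGAAGGAA on either strand is found in 3.67% of all 35116 RefSeq windows of the same 300 bases. Windows for 7 of the 10 members were looked at, and the other windows, for SOX2, SOX4, SOX5, SOX12, SOX13, SOX21 and the other 3 starts of SOX6, held no match. A match is a description of these letters and says nothing of binding in these cells. In CPM of assigned reads, the transcript with the match was at 11.3 ± 1.41 untreated and 11.9 ± 2.29 with doxycycline (SD, n = 4 each), and the one without at 14.4 ± 3.01 and 14.8 ± 1.46.

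**Figure D1:**
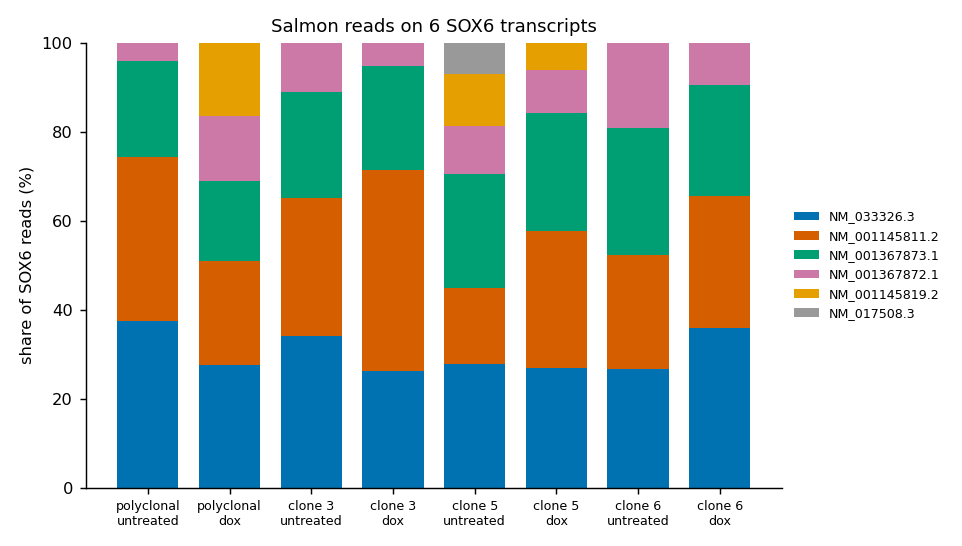
Share of SOX6 reads (%) that Salmon placed on each of 6 transcripts, 1 bar per library in the order untreated and doxycycline within each origin. NM_001145811.2, NM_033326.3, NM_001367873.1 and NM_001367872.1 are present in all 8 bars, with medians of 30.2%, 27.8%, 24.4% and 10.3%, and NM_017508.3 in 1 bar.

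The next comparison asked whether the SOX genes differed between the 4 origins, with the treatment in the model (F-test over origins in the same edgeR fit). SOX13, SOX9, SOX2 and SOX8 differed, which is 4 of 9 members, and 39.4% of all genes tested differed by the same test. The highest and lowest origin were a median of 0.37 apart on the log2 scale for the members and 0.56 for all genes tested. In 9 of 9 members, and in 14759 of 15991 genes, this distance was larger than the absolute change with doxycycline. A distance from highest to lowest of 4 origins is likely to exceed a single difference between groups for any gene, so the sizes cannot be weighed this way.

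SOX13 stood out in clone 3. Its CPM was 13.0, 23.3, 10.7 and 10.9 in the untreated polyclonal population and clones 3, 5 and 6, and 16.5, 23.5, 11.98 and 12.03 with doxycycline. Both cultures of clone 3 lay above the other 6, and the highest and lowest origin means differed 2.05-fold (adjusted p = 0.00254). Without clone 3, the adjusted p of SOX13 was 0.102.

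SOX9 was highest in the polyclonal population. Its CPM was 57.4, 46.8, 34.2 and 50.7 untreated and 54.8, 34.2, 28.7 and 36.2 with doxycycline in the same order of origins. Clone 5 had the lowest value in both groups, and the means of the polyclonal population and clone 5 differed 1.79-fold (adjusted p = 0.00751). The difference in SOX9 passed the test under 10 of 10 alternatives, with adjusted p up to 0.0465.

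SOX2 was lowest in clone 5. Its CPM was 87.4, 88.0, 71.6 and 94.5 untreated and 80.02, 82.8, 69.8 and 84.5 with doxycycline, and clones 6 and 5 differed 1.26-fold in their means (adjusted p = 0.0354). The difference rested on clone 5, since without it the adjusted p was 0.623, and it was 0.0739 without clone 6. SOX8 had a CPM of 5.77, 7.97, 5.04 and 4.22 untreated and 5.37, 6.63, 3.12 and 4.29 with doxycycline. Clone 3 was highest in both groups and its mean was 1.82-fold that of clone 5 (adjusted p = 0.0488). Without clone 3, the adjusted p of SOX8 was 0.263, and it was 0.0515, 0.0643 and 0.0775 without the polyclonal population, clone 5 and clone 6.

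Differences between origins did not pass the test for SOX12 (adjusted p = 0.0633), SOX11 (0.0713), SOX5 (0.107), SOX6 (0.274) and SOX4 (0.331). Highest and lowest origin means differed 1.27-fold for SOX12 and SOX4, 1.296-fold for SOX11 and 1.14-fold for SOX6. SOX5 had the largest fold of the members, 3.45 between clones 6 and 5, and its difference passed with DESeq2 (adjusted p = 0.0208), without the filter (0.0184) and without clone 3 (0.0283). SOX12 also passed under 3 of 10 alternatives (lowest adjusted p 0.0309) and SOX11 under 2 (lowest 0.0200, with DESeq2). SOX4 and SOX6 passed under 0. For 6 of 9 members the mean of the polyclonal population lay within the range of the 3 clones, and it was the highest for SOX6, SOX9 and SOX12. The same origin was lowest in both treatments for 6 of 9 members. Outside the members, SOX18 also differed between origins, 2.85-fold between the polyclonal population and clone 5 (adjusted p = 0.00687). Summed fibroblast markers moved with origin as well, from 148 to 454 TPM in untreated and from 146 to 476 TPM in doxycycline cultures. COL3A1 differed between origins (F-test over origins, adjusted p = 6.27e-06). Summed Ewing sarcoma markers also moved, from 3059 to 5330 TPM in untreated and from 3083 to 5441 TPM in doxycycline cultures. In the same test, 4 of 5 fibroblast and 8 of 10 Ewing sarcoma markers passed, against 39.4% of all genes tested. The part of these markers in the differences of SOX genes was not tested.

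**Figure D2:**
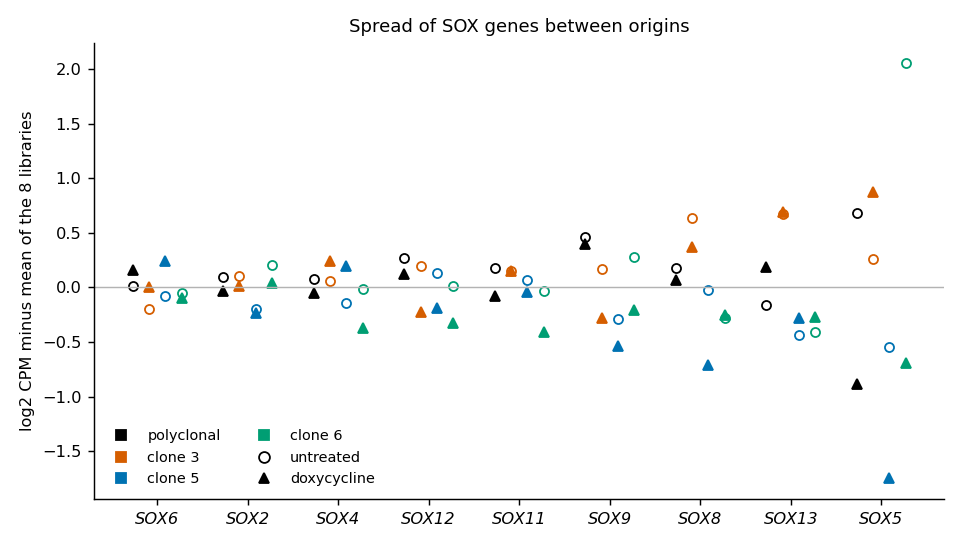
Log2 CPM of 9 SOX genes minus the mean of the 8 libraries for that gene, with both cultures of each origin side by side (open circles untreated, filled triangles doxycycline). Clone 3 stands highest for SOX13 in both cultures, and the means of SOX6 differ 1.14-fold between its highest and lowest origin.

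Doxycycline was then compared with untreated, paired by origin. SOX12 fell by 19.1% and was the 1 member of 9 that passed the test, against 7.62% of all genes tested in either direction, 3.9% called lower, and 11% of the tested transcription factors of the study's list (136 of 1240). Estimates were lower for 6 members and higher for 3, with a median log2 fold change of -0.19 for the members and 0.00 for all genes tested. Without regard to direction, the median change was 0.19 for the members and 0.15 for all genes tested, and it was under 0.5 in 8 of 9 members, all but SOX5. SOX2, SOX9, SOX11 and SOX12 were lower in 4 of 4 pairs, as were 15.9% of all genes tested, and for SOX11 the difference in clone 3 was next to nothing. SOX13 was higher in 4 of 4, as were 2771 of 15991 genes tested. The groups overlapped for every member, and they did so for most genes, since 4.95% of all genes tested had none. For a single gene the smallest p that sign flips in 4 pairs can give is 0.125 (exact permutation test, two-sided), which SOX2, SOX9, SOX11, SOX12 and SOX13 reached.

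The CPM of SOX12, a weak activator of its group, was 87.8, 83.9, 79.8 and 73.9 in the untreated polyclonal population and clones 3, 5 and 6, and 79.5, 62.6, 64.2 and 58.2 with doxycycline. The 3 clones with doxycycline lay below all untreated cultures, while the polyclonal population with doxycycline did not. Means were 81.4 ± 5.93 and 66.1 ± 9.25 CPM (SD, n = 4 each), and the log2 fold change was -0.31 (standard error 0.06, 95% confidence interval -0.45 to -0.16, adjusted p = 0.0321). Without origin in the model the estimate was -0.30 and the adjusted p 0.603; that fit called 0.00625% of all genes, which is 1 gene. The adjusted p of SOX12 was 0.0873, 0.121 and 0.106 without clones 3, 5 and 6 in turn.

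SOX9, whose values by culture are given above, was lower with doxycycline by 0.07, 0.44, 0.25 and 0.48 on the log2 scale in the polyclonal population and clones 3, 5 and 6. The smallest difference was thus in the polyclonal population. Its log2 fold change of -0.31 (standard error 0.08, 95% confidence interval -0.51 to -0.12) missed the threshold at an adjusted p of 0.0653. DESeq2 with origin in the model gave SOX9 -0.32 with an adjusted p of 0.0169, and called SOX5, SOX9 and SOX12 lower among the members and 8.31% of the genes it adjusted lower.

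SOX11 had a CPM of 165, 162, 153 and 142 untreated and 138, 162, 141 and 109 with doxycycline. The cultures of clone 3 were level and those of clone 6 furthest apart. The log2 fold change was -0.19 (standard error 0.07, 95% confidence interval -0.35 to -0.03, adjusted p = 0.149). SOX4 had no common direction, with 90.5, 89.3, 77.6 and 84.8 CPM untreated and 82.5, 102, 98.1 and 66.0 with doxycycline. It was higher with doxycycline in clones 3 and 5 and lower in the polyclonal population and clone 6, and the interval of its log2 fold change reached from -0.25 to 0.27 (adjusted p = 0.972).

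For SOX2 the values were close within each pair, and the log2 fold change was -0.10 (standard error 0.05, 95% confidence interval -0.23 to 0.02, adjusted p = 0.281). As a ratio, the interval spans 0.854 to 1.01. SOX8, from 94 to 253 reads per library, had a log2 fold change of -0.26 (95% confidence interval -0.63 to 0.12, adjusted p = 0.377), and of -0.14 without clone 5. SOX13 had 0.17 (-0.05 to 0.38, adjusted p = 0.319), with the largest difference in the polyclonal population, without which it was 0.10.

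SOX6 had a CPM of 53.9, 46.5, 50.4 and 51.4 untreated and 59.6, 53.3, 63.0 and 49.9 with doxycycline. It was higher in 3 of 4 pairs, and clone 6 was the exception (log2 fold change 0.16, 95% confidence interval -0.01 to 0.32, adjusted p = 0.232). Without clone 5 the log2 fold change of SOX6 was 0.08. SOX5 had 5.01, 3.75, 2.14 and 13.0 CPM untreated and 1.69, 5.73, 0.93 and 1.94 with doxycycline. It was lower in 3 pairs and higher in clone 3, and its log2 fold change of -1.22 had a wide interval (-2.36 to -0.08, adjusted p = 0.178). The untreated culture of clone 6 was the highest of the 8. The value moved with the culture left out: it was -1.87 without clone 3, which passed the test (adjusted p = 0.038), and -0.68 without clone 6 (adjusted p = 0.453). An offset for transcript length, which shifts with the transcripts read, gave -0.65 (adjusted p = 0.608), and whether its values follow the transcripts that were not matched was not tested.

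**Figure D3:**
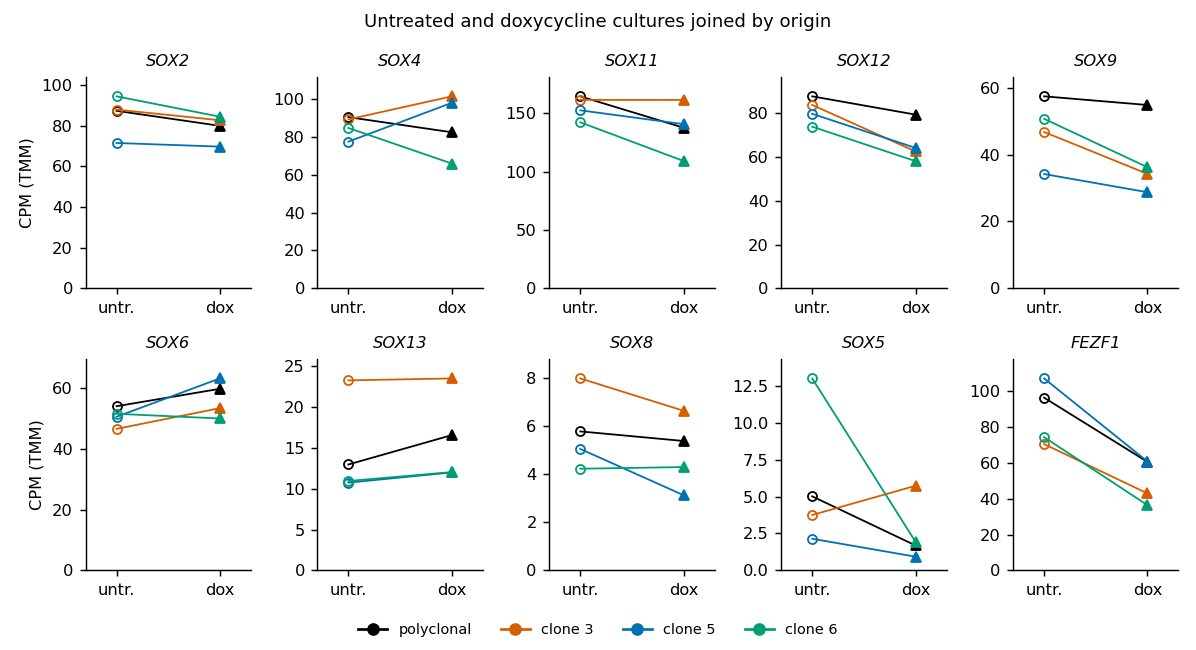
CPM after TMM scaling of 9 SOX genes and FEZF1 in untreated (left) and doxycycline (right) cultures, with a line for each origin and axes from 0. Lines of SOX12 and FEZF1 fall in all 4 origins, and those of SOX4 rise in 2 and fall in 2.

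**Figure D4:**
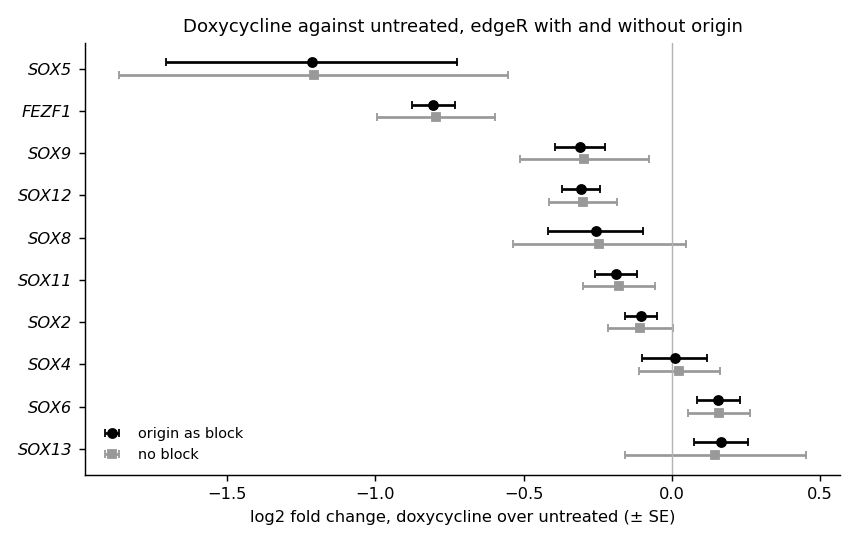
Log2 fold change of doxycycline over untreated with its standard error for 9 SOX genes and FEZF1, from edgeR with origin as a block (black) and without it (grey). Estimates of both fits lie close together, whereas the standard error of SOX12 is 0.06 with and 0.11 without the block.

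Genes tied to SOX factors were looked at through lists of their partners, targets and regulators. Of 11 POU, PAX and other factors that bind DNA and are known to work with SOX factors, 8 were tested and EGR2, a zinc finger factor of myelinating cells, rose from 17.7 ± 2.92 to 28.4 ± 5.06 CPM (log2 fold change 0.68, adjusted p = 0.0114, higher in 4 of 4 pairs). POU3F2, a neural POU factor and partner of SOX2 and SOX11, had 0.35 (adjusted p = 0.0528) and differed between origins (adjusted p = 0.000152). MITF, also on this list, had 1.51 (adjusted p = 0.057, higher in 4 of 4 pairs), at 2 to 25 reads in a library. Of 12 genes of neural progenitors and pluripotency, 8 were tested, and 1 rose and 1 fell. In this list, and in that of the partners where 1 passed, 4 of 8 were at an unadjusted p under 0.05. Of all genes tested, 24.8% lay there and 7.62% passed after adjustment. NES, which encodes the intermediate filament nestin of neural progenitors and is a known target of SOX2, fell from 107 ± 70.2 to 75.1 ± 49.7 CPM (log2 fold change -0.54, adjusted p = 0.00731, lower in 4 of 4 pairs). SALL4, a factor of pluripotent cells, rose with a log2 fold change of 1.03 (adjusted p = 0.0403), with 52.0% of its reads matched. NES and SALL4 also differed between origins (F-test over origins, adjusted p = 2.71e-05 and 0.00513).

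Of 9 genes tied to SOX4 and SOX11, 7 were tested and 0 passed the test (3 at an unadjusted p under 0.05, where 24.8% of all genes tested lay). The most abundant of them were STMN1 and TUBB3, which encode proteins of the microtubule system, at means of 2025 and 510 TPM. Their log2 fold changes were -0.09 (adjusted p = 0.283) and 0.07 (adjusted p = 0.617). Cartilage genes tied to SOX9, SOX5 and SOX6 were at low levels: of 12, 8 were tested and 0 passed the test (2 at an unadjusted p under 0.05, a share near that of all genes). Estimates were lower for 6 of the 8, and the largest were those of COL2A1 (log2 fold change -1.30, adjusted p = 0.093) and COL11A1 (-1.19, adjusted p = 0.0523), each lower in 4 of 4 pairs and read at most 32 times in a library. COL9A3, a collagen of cartilage, was the most abundant at 11.3 TPM, followed by HAPLN1, a link protein of the cartilage matrix, at 2.28 TPM. COL2A1 (0.146 TPM) and ACAN (2 reads in all 8 libraries), which encode the main collagen and proteoglycan of cartilage, were near 0, beside SOX9 at 18.6 TPM.

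Of 9 regulators tied to SOX genes, mostly of the Notch and Wnt pathways, 8 were tested and 0 passed the test (3 at an unadjusted p under 0.05, against 24.8% of all genes). CTNNB1, which encodes beta-catenin, was at 125 TPM (log2 fold change -0.02, adjusted p = 0.881) and HES1, a target of Notch, at 63.8 TPM (-0.18, adjusted p = 0.165). GLI2 had the lowest adjusted p of these regulators, 0.0529 (log2 fold change -0.33, lower in 4 of 4 pairs). Of 5 noncoding RNAs at SOX loci, 2 were tested and 0 passed (0 at an unadjusted p under 0.05): SOX9-AS1 had a log2 fold change of -0.31 (adjusted p = 0.533) and SOX2-OT of -0.06 (adjusted p = 0.923). VIM, on the list for SOX2, could not be read, since 0.00807% of its reads were matched.

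As a description, the gene whose log2 CPM over the 8 libraries was most like that of each member, among 10776 genes, was IGSF10 for SOX2 (Pearson r = 0.991), VASN for SOX8 (0.990), ODF2 for SOX12 (0.990), PRKCA for SOX13 (0.985), KLHL25 for SOX11 (0.976) and XKR4 for SOX9 (0.969). For SOX6, SOX5 and SOX4 it was ZMYM4 (0.959), PAFAH1B1 (0.958) and AHCTF1 (0.957). The 8 points share 4 origins, and the best of many genes is high by choice.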

How the data were processed

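RNA of 8 libraries (TruSeq stranded mRNA, paired-end reads, Illumina NovaSeq) was quantified by the authors with Salmon on GRCh38 RefSeq transcripts, and they deposited estimated counts and TPM of 158867 transcripts per library. They also deposited a DESeq2 table (version 2.11.40.6), of which the mean signal of normalized counts was used to check matching; its fold change, standard error, Wald score, p-value and adjusted p-value columns were not used. Salmon's strand setting is not given in the sources used here.

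By RefSeq accession, 115319 transcripts (72.6%) were matched to symbols, with 89.9% to 91.1% of reads, and summed to 34788 genes. Sums were rounded, filtered (filterByExpr, minimum count 10), TMM-normalized and tested in edgeR 4.0.16 (R 4.3.3) with origin as a block, at a Benjamini-Hochberg adjusted p of 0.05 over all genes. DESeq2 1.42.0, no block, other scaling and filters, a length offset, curated transcripts only and leaving out each origin were alternatives. Fits were tested on simulated data. Untreated and doxycycline cultures of 1 origin come from the same cells. Their deviations from the mean of their treatment group correlated at r = 0.406 to 0.590, against -0.395 to 0.179 between origins. These deviations sum to 0 in each group, so high values within origins force lower ones between origins, and both ranges are tied to each other. For log2 ratios of a pair, 0.5 CPM was added to both values.

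Members, lists and tests were chosen with earlier results of these data known. The named genes are the members, FEZF1 and the other SOX genes. From each list, up to 4 called genes are named, or else its 2 most abundant ones. The genes most like each member were taken among those with a mean CPM of at least 5. POU3F2, MITF, GLI2, COL2A1, COL11A1, ACAN, VIM and the marker genes were named after their values were seen. Of 61 list genes whose authors' mean was at least 10, 5 had under 80% of their reads matched. Python 3.11.15, numpy 2.4.6, pandas 2.3.3 and matplotlib 3.10.9 were used. The result of 1 marker list is not reported here.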

Additional observations from a re-analysis of the deposited data

How the results depend on the processing

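Over 12 alternatives for each of 9 SOX genes and FEZF1, 104 log2 fold changes kept their direction and their side of the threshold, 7 no longer passed, 5 newly passed and 4 reversed. All 4 reversals were SOX4: -0.0044 with DESeq2 and the replicate block, -0.0034 with DESeq2 size factors, and -0.05 and -0.12 without clones 3 and 5 (range over the alternatives -0.12 to 0.13). SOX12 stayed between -0.37 and -0.27 but missed the threshold in 6, among them curated transcripts only (adjusted p = 0.0519).

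With the replicate block, 1 of 9 SOX genes and 1219 of 15991 genes passed for doxycycline. Without it, 0 SOX genes (1 at an unadjusted p under 0.05; SOX12) and 1 gene passed in edgeR, and 0 SOX genes and 231 genes in DESeq2. DESeq2 with the block gave 3 SOX genes and 1920 genes. The edgeR fit without the filter gave 2 SOX genes (SOX9 and SOX12), as did the filter at 10 counts in every library, and curated transcripts only gave 0 SOX genes and 493 genes. Leaving out each origin gave 0 to 1 SOX genes and 175 to 699 genes. Size factors and the length offset left SOX12 as the 1 member that passed.

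Between origins, 4 SOX genes and 6298 genes passed. DESeq2's likelihood ratio test gave 7 SOX genes, curated transcripts only gave 2 SOX genes and 4053 genes, and leaving out each origin gave 2 to 4 SOX genes and 2969 to 5299 genes. Apart from fewer libraries or transcripts, the cause was not tested. With 4 pairs, low counts (28.0 to 323 reads of SOX5) and partial matching limit what could be seen.

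By CPM in place of TPM, SOX11 ranked 1, SOX2 3, SOX6 5 and SOX9 6 among the members.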
